A study of Mus musculus with 10 samples.

Results

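Adult cortical endothelial cells (ECs) given the ligand Wnt3a were compared with control cultures of the same kind of cell by mRNA sequencing. Of the 21612 genes in the table, 12590 reached a normalised count of at least 10 in at least 2 of the 5 libraries, and these genes are described here. A normalised count is the number of reads on a gene divided by the size factor of its library. There were 3 adult control libraries and 2 Wnt3a libraries among the 10 libraries of the series, and all 5 came from wild-type adults, for which the methods name male C57BL/6J mice. The labels of the 5 samples name no transgene or deletion. The Wnt3a samples are labelled with 200 nM of the ligand, and the methods give the amount as a mass per volume instead, so the 2 sources differ in unit. The methods describe cortices pooled after removal of the meninges, with ECs plated on collagen, expanded in EC medium and used at a second passage. Each sample is labelled as a biological replicate, and nothing ties a numbered control culture to the Wnt3a culture of the same number. How many animals stand behind a culture is not stated for these libraries, and p-values measure the spread between cultures only. The main test took that spread from all 10 libraries of the series. The other libraries are of E13.5 (embryonic) ECs and of adult ECs given MS-275, a class I HDAC inhibitor. The question was whether adult ECs still answer the ligand at their Wnt targets.

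Wnt ligands bind Frizzled receptors with the co-receptors Lrp5 and Lrp6 on the cell surface. Binding stops the Axin, APC and GSK3 complex from marking β-catenin for breakdown, and β-catenin then enters the nucleus and acts with TCF and LEF factors on target genes. In brain vessels this pathway drives the growth of capillaries into the neural tissue and the formation of the blood-brain barrier (BBB). Axin2, Lef1, Nkd1, Notum, Sp5 and Rnf43 are widely used readouts because the pathway induces its own feedback genes.

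The libraries held between 21171509 and 31763483 reads on genes. Of the 12590 genes, 11558 reached 10 in all 5 libraries. Only 22 genes had no control library at 10 and only 88 had no Wnt3a library at 10, so few genes passed through a single group. Defining endothelial genes were high in all 5 libraries. Pecam1 (CD31) had normalised counts of 74703, 81545 and 58849 in adult control 1, 2 and 3 and 53472 and 57711 in Wnt3a 1 and 2, and Cdh5 (VE-cadherin) 81723, 90276 and 75414 and 55740.2 and 70487 in the same order. Markers of other brain cells were mostly near absence, and of 8 marker lists the number of tested members ran from 0 of 7 (epithelium and choroid plexus) to 4 of 14 (microglia and macrophages) and 4 of 12 (pericytes and smooth muscle). The microglial genes P2ry12, Adgre1, Tyrobp, C1qa and C1qb and the pericyte genes Rgs5, Kcnj8, Vtn and Des had no read in any of the 5 libraries. Some other members were not low. The microglia and macrophage list summed to 6794 to 15163 over the 5 libraries, nearly all from Cd68, with Csf1r at 108 to 219. The astrocyte list summed to 3899 to 11685, nearly all from Gja1. The neuron and progenitor list summed to 1836 to 12320, nearly all from Nes. The summed level of the pericyte list ran from 30.4 to 77.9 in the controls and was 80.6 and 86.0 in the Wnt3a libraries. Of the lymphatic and sinusoidal endothelial list, Lyve1 ran from 20678.6 to 35575.5 over the 5 libraries and Stab1 from 2214 to 19779.5. Prox1 and Pdpn of that list reached at most 1.97 and 1.73. Fewer cells of a type and less RNA per cell cannot be told apart in such bulk samples.

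The 5 libraries did not group by treatment. Adult control 1 and adult control 2 were more than 2-fold apart in 356 of the 12590 genes, and adult control 3 and Wnt3a 2 in 334. Every other pair of libraries was more than 2-fold apart in 2046 to 3241 genes. Across genes, Spearman's rho was 0.997 for both close pairs and 0.927 to 0.956 for the others. The root mean square log2 difference was 0.364 between controls 1 and 2, 0.371 between control 3 and Wnt3a 2, 0.918 and 0.97 between Wnt3a 1 and controls 1 and 2, and 1.2 between Wnt3a 1 and each of control 3 and Wnt3a 2. Wnt3a 2 thus lay as close to control 3 as the controls 1 and 2 lay to each other, and Wnt3a 1 lay apart from all of the other libraries. The reads of control 3 and Wnt3a 2 differed by more than sampling noise, with a mean chi-square of 9.34 per gene against 10.7 for controls 1 and 2, so neither close pair was a single library deposited under both names.

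**Figure D1:**
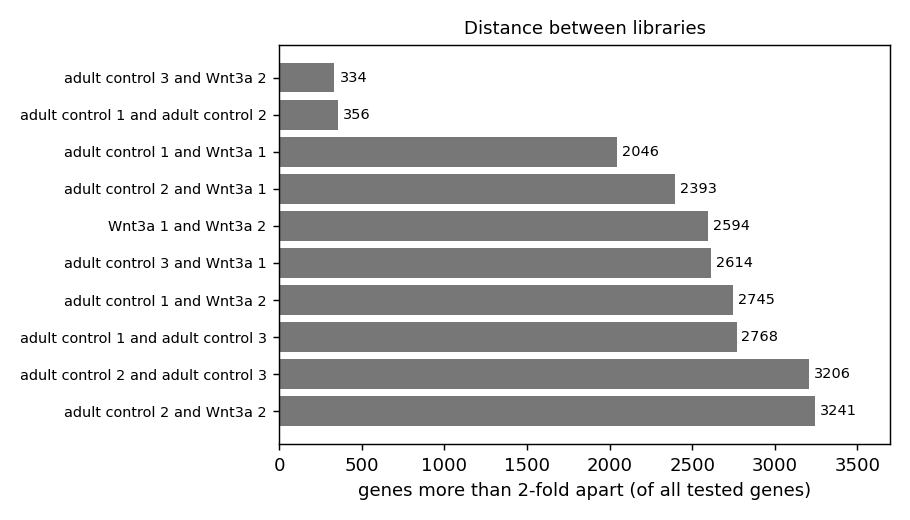
Number of the 12590 tested genes more than 2-fold apart (horizontal axis) for each pair of the 5 libraries, 1 bar a pair. The bars for control 3 with Wnt3a 2 (334) and control 1 with control 2 (356) are far shorter than the other 8, which run from 2046 to 3241.

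Some genes were present in some of the libraries and all but absent from the rest, without regard to treatment. At a limit of at least 100 on one side and under 10 on the other, 11 genes were present in controls 1 and 2 and Wnt3a 1 and absent from control 3 and Wnt3a 2, and 22 genes showed the reverse. No gene divided the libraries with Wnt3a 1 on the side of control 3, and no gene divided both Wnt3a libraries from all controls. Pir, an iron-binding nuclear protein, had 503, 478 and 0 in the controls and 665 and 0 in Wnt3a 1 and 2. Enah, an actin regulator of the Ena/VASP family, had 0, 2.03 and 474 and 0 and 413, and Mmp2, a gelatinase, 0, 0 and 131 and 1.39 and 127. Control 3 and Wnt3a 2 carried Enah and Mmp2 and lacked Pir, and the other 3 libraries had the opposite pattern. The libraries are therefore described below both as groups and as 2 culture sets, with controls 1 and 2 and Wnt3a 1 in one and control 3 and Wnt3a 2 in the other. The sets were drawn from the data and carry no label of the study. Wnt3a 1 was placed mainly by these present and absent genes, since it differed from controls 1 and 2 in far more genes than those differed from each other. What makes the sets differ was not tested.

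The same split set the 2 treated libraries apart. Wnt3a 1 and Wnt3a 2 were more than 2-fold apart in 2594 genes. Among the genes with the widest gap, Sphk1, the sphingosine kinase, had 167, 196 and 2.96 in the controls and 764 and 0 in Wnt3a 1 and 2, and Vcan, the matrix proteoglycan versican, 273, 232 and 5.92 and 2562 and 9.55. On the other side, Chst11, a chondroitin sulfotransferase, had 8.67, 16.3 and 946 and 0 and 914, and Rerg, a Ras-like GTPase, 6.94, 2.03 and 211 and 0 and 667. In each of these genes Wnt3a 2 was on the same side as control 3 and Wnt3a 1 on the same side as controls 1 and 2.

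The Wnt3a and control libraries were first compared as groups. The limma test on log2(normalised count + 1), fitted over all 10 libraries and adjusted over the 12590 genes (Benjamini-Hochberg), called 0 genes (0% of those tested) with the adjusted p required to be under 0.05 and the log2 difference to be above 0.2 in size. The smallest adjusted p was 0.752, and 727 genes had an unadjusted p under 0.05, 406 higher and 321 lower with Wnt3a. edgeR called 0 genes (697 at an unadjusted p under 0.05), and DESeq2 called 1, Trp53i11, which had 3016, 3664 and 292 in the controls and 38.9 and 214 in Wnt3a 1 and 2. Both Wnt3a libraries were above all 3 controls in 951 genes (7.55%) and below all 3 in 1195 (9.49%). With a gap of more than 2-fold between the groups, 8 genes were higher (0.0635%) and 12 lower (0.0953%). With the culture set as a term in a fit of the 5 libraries, an alternative chosen after the data were seen, limma also called 0 genes, with a smallest adjusted p of 0.412 and 1086 at an unadjusted p under 0.05. The group result rested on control 3. Without control 3, limma called 732 genes, 510 higher and 222 lower, and in that fit Wnt3a 2 met controls of the other set only. Without Wnt3a 2 it called 48, and without any of the other 3 libraries 0.

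Genes with the smallest unadjusted p and no overlap between the groups included some in which both treated libraries stood well above the controls. The step was larger in Wnt3a 1. On the log2 scale Wnt3a 1 was above controls 1 and 2 by 1.96 in Fam20c and 2.64 in Creb5, and Wnt3a 2 above control 3 by 1.24 and 1.45. Fam20c, the Golgi kinase that phosphorylates secreted proteins, had 44.2, 44.7 and 43.4 in the controls and 176 and 104 in Wnt3a 1 and 2. Its 3 controls lay within 2 counts of each other in spite of their different sets, and both treated libraries were above 100. The log2 difference was 1.60 ± 0.34 (SE, limma, unadjusted p = 0.00117). Creb5, a transcription factor of the CREB family, showed the same arrangement, with 26.0, 20.3 and 25.6 in the controls and 149 and 71.6 with Wnt3a, a log2 difference of 2.07 ± 0.47 (unadjusted p = 0.00171). Lnpk, which shapes the junctions of the endoplasmic reticulum, had 118, 109.8 and 226 and 386 and 353, and Synm, the intermediate filament protein synemin, 40.8, 54.9 and 128 and 319.5 and 246. For Lnpk and Synm control 3 lay between controls 1 and 2 and the treated libraries, so Wnt3a 2 was nearer to control 3 than Wnt3a 1 to controls 1 and 2. The adjusted p was 0.752 for each of these 4 genes.

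Other genes of this kind had a wide gap in Wnt3a 1 and a narrow one in Wnt3a 2. Thbs1, thrombospondin-1, a matrix protein that restrains vessel growth, had 234, 173 and 406 in the controls and 1471 and 667 in Wnt3a 1 and 2 (log2 difference 1.96 ± 0.48, unadjusted p = 0.00282). Rras2, a Ras-related GTPase, had 1389, 1184 and 2795 and 6999 and 3648, and Map6, a microtubule-stabilising protein, 139, 149 and 468 and 2059 and 572. In these genes Wnt3a 2 was above control 3 by 0.71, 0.38 and 0.29 on the log2 scale, and Wnt3a 1 was above controls 1 and 2 by 2.86, 2.45 and 3.83. Fez1, an adaptor of kinesin transport, Gpr161, a receptor of the primary cilium, Atp1b1, a sodium pump subunit, and Tmem65 and Dipk2a also had no overlap, with log2 differences between 0.84 ± 0.21 (Tmem65) and 2.06 ± 0.47 (Fez1). By the size of the gap, Tmprss11b, a membrane serine protease, stood at 34.7, 39.6 and 106 and 538 and 258, Cyp26b1, which degrades retinoic acid, at 19.1, 16.3 and 33.5 and 543 and 66.9, and Gfpt2, an enzyme of the hexosamine pathway, at 146, 117 and 154 and 731 and 271. Klhdc8a and Cd80, a ligand for T cell co-receptors, completed the 8 widest gaps, and Cd80 had 1.73, 8.13 and 14.8 in the controls and 196 and 25.1 with Wnt3a.

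On the lower side, Rab4a, a GTPase of the recycling endosome, had 782, 983 and 853 in the controls and 433 and 457 in Wnt3a 1 and 2, a log2 difference of -0.96 ± 0.23 (unadjusted p = 0.00205). The controls of both sets were alike in Rab4a and both treated libraries were about equally low. Rnf128, a ubiquitin ligase, had 143, 148 and 73.9 and 38.9 and 33.4 (log2 difference -1.66 ± 0.45), and Ttyh1, a tweety-family membrane protein, 3074, 4259 and 2704 and 457 and 1557 (log2 difference -1.96 ± 0.45). Hsph1, a chaperone of the Hsp110 family, had 12368, 14681 and 8565 and 6729 and 6252, and Btg2, an antiproliferative gene, 4444, 5169 and 4453 and 1634 and 3297. Ets2, a transcription factor of the ETS family, had 20404, 21641 and 14515 and 4904 and 10584, with control 3 below controls 1 and 2 and Wnt3a 2 below control 3. Sgsm1, Tmem252, Ulk4, Slc22a23 and A730049H05Rik had the same order as Ets2. Ulk4 overlaps Ctnnb1, the β-catenin gene, on the other strand of chromosome 9. The strand setting of the counting is not stated, and whether the 2 genes share reads was not tested. By the size of the gap, Clca2 had 7420.4, 9159 and 3076 and 278 and 1997, Il16, a cytokine, 167, 166 and 73.9 and 19.4 and 47.8, Zfp580 147, 167 and 126 and 69.5 and 82.4, Ccdc102a 268, 287 and 272 and 149 and 178, and Mpp3, a membrane scaffold, 113, 136 and 105 and 16.7 and 71.6. In Clca2 and Mpp3 Wnt3a 1 was far below the other 4 libraries.

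**Figure D2:**
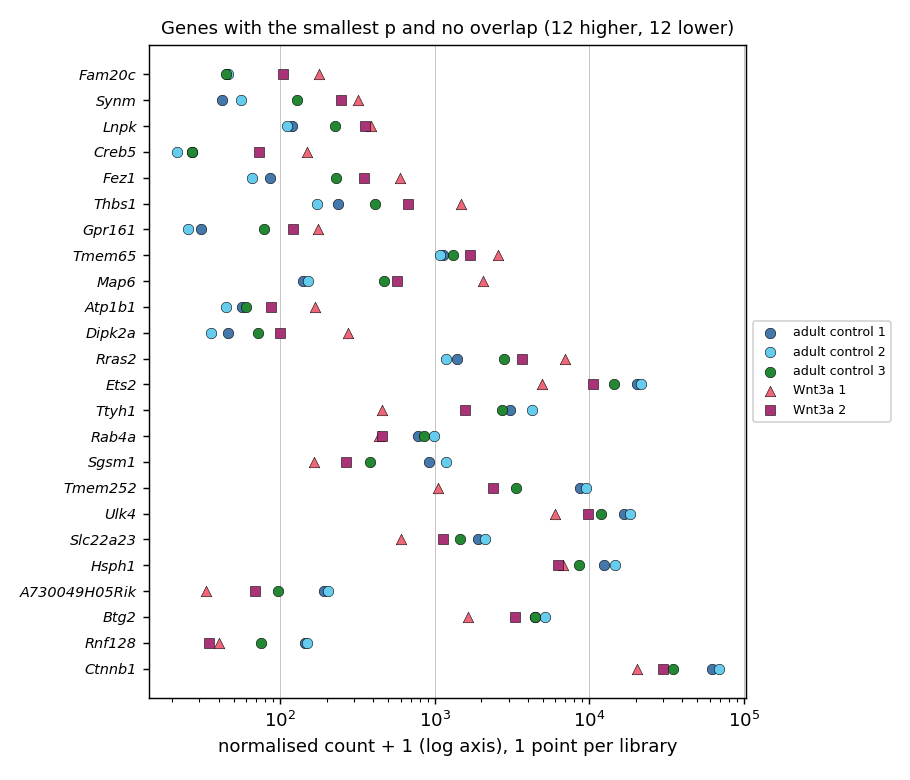
Normalised count + 1 (log axis) in each of the 5 libraries, 1 point per library, for the 12 higher and 12 lower genes with the smallest unadjusted p, a mean of at least 100 in the higher group and no overlap. Wnt3a 1 (triangles) is the farther of the 2 treated libraries in most rows, and Wnt3a 2 (squares) and control 3 are neighbours in most rows.

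The 2 treated libraries were then compared with the controls one at a time. In such a test a lone library is assumed to vary as the other groups do, and the result is about that library. Against all 3 controls, limma called 10 genes higher (0.0794%) and 38 lower (0.302%) in Wnt3a 1, with 1465 at an unadjusted p under 0.05. For Wnt3a 2 it called 0 (0%), with a smallest adjusted p of 0.714 and 220 at an unadjusted p under 0.05, while edgeR called 0 (207 at an unadjusted p under 0.05) and DESeq2 1 (467). Without control 3, limma called 1567 genes in Wnt3a 2. The call count for Wnt3a 1 was 0 without control 1 or without control 2, 685 without control 3, and 0 when the 5 libraries were fitted alone. For Wnt3a 1, edgeR called 11 and DESeq2 504. The difference between the 2 treated libraries was not tested gene by gene, since each is a single culture.

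The genes called in Wnt3a 1 included several with known roles in vessels. Ednrb, the endothelin B receptor, had 19145, 20219 and 20548 in the controls and 2146 and 17150.1 in Wnt3a 1 and 2. It fell by 3.22 on the log2 scale in Wnt3a 1 (adjusted p = 0.0154), with Wnt3a 2 close to the controls. Lmo2, a transcription cofactor of blood and vessel development, had 2696, 3134 and 2203 and 95.9 and 2109 (log2 difference -4.77 ± 0.47, adjusted p = 0.0154). Rasip1, which vessels need to form a lumen, had 5385, 5723 and 5194 and 1203 and 4762, and Flt1, the VEGF receptor 1, 5205, 5841 and 6629 and 1367 and 6487 (adjusted p = 0.0154 and 0.0427). Hey1, a Notch target, had 26.0, 34.6 and 27.6 and 0 and 69.2, and with no read in Wnt3a 1 it was lower there than the 3-read floor of 4.17. Sstr2, a somatostatin receptor, had 3931, 5006 and 4912 and 433 and 3457, and Syt13, a synaptotagmin, 1109, 1430.3 and 1001 and 8.34 and 769. Tbc1d16 and Wscd1 fell as well, with log2 differences of -3.75 ± 0.39 and -5.20 ± 0.55. In all of these genes Wnt3a 1 was below every control, and Wnt3a 2 was far nearer to the controls, from somewhat below them (Rasip1, Sstr2, Syt13) to above them (Hey1).

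Among the 10 genes called higher in Wnt3a 1, Adam8, a membrane metalloprotease, had 272, 262 and 282 in the controls and 2094 and 406 in Wnt3a 1 and 2 (log2 difference 2.94 ± 0.28, adjusted p = 0.0154). Rnd1, a small GTPase that loosens adhesion, had 355, 339.5 and 432 and 1906 and 451, and Ptgs2 (COX-2), the inducible prostaglandin synthase, 1557, 1494 and 882 and 9475 and 870.3 (adjusted p = 0.0154 and 0.0154). Cd24a, Srgap3 and Nabp1 rose with log2 differences of 2.59 ± 0.32, 2.89 ± 0.36 and 2.19 ± 0.30. The controls of both sets were alike in Adam8 and Rnd1, and Wnt3a 2 was above them by a smaller step than Wnt3a 1. For Wnt3a 2, the gene with the smallest unadjusted p among those higher was Arl4a, an Arf-like GTPase, with 723, 849.9 and 828 in the controls and 775 and 1631 in Wnt3a 1 and 2, and DESeq2 called it while limma did not. Insr, the insulin receptor, had 1349, 1571 and 1759 and 1364 and 2725, and Scg2, a secretogranin, 13.9, 6.10 and 55.2 and 19.4 and 303. In these 3 genes Wnt3a 2 was the highest library and Wnt3a 1 lay within the range of the controls.

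Each treated library was also set against the controls of its own culture set, to take out the difference that the sets share. In some genes Wnt3a 1 lay at the level of control 3, and there this comparison cannot be told apart from the split between the sets. Examples are Fabp5 (16159, 20204 and 1483 in the controls, 1689 in Wnt3a 1) and Ifit2 (71.1, 52.9 and 610, and 632). Cldn5, Fzd9 and Dvl1 showed the same. This choice was made after the data were seen. Wnt3a 1 was more than 2-fold above both controls 1 and 2 in 1020 genes (8.1%) and more than 2-fold below both in 726 (5.77%). Wnt3a 2 was more than 2-fold above control 3 in 155 (1.23%) and below it in 179 (1.42%). The median absolute log2 difference was 0.412 for Wnt3a 1 against the mean of controls 1 and 2, 0.111 for Wnt3a 2 against control 3, and 0.11 for control 1 against control 2. Wnt3a 2 was thus about as far from control 3 as control 1 from control 2, the closest pair of controls. For control 3 against controls 1 and 2 the value was 0.533. Control 3 had been matched to Wnt3a 2 from these same data, so a short distance follows in part from that choice. The 2 within-set differences share no library, and across genes their Pearson's r was 0.0764 and their Spearman's rho 0.0731, given as a description, since genes are not replicates. Against controls 1 and 2 in the fit without control 3, limma called 406 genes higher (3.22%) and 279 lower (2.22%) in Wnt3a 1, and these included all 48 called against the 3 controls. Wnt3a 2 against control 3 is 1 library against 1 and has no test.

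**Figure D3:**
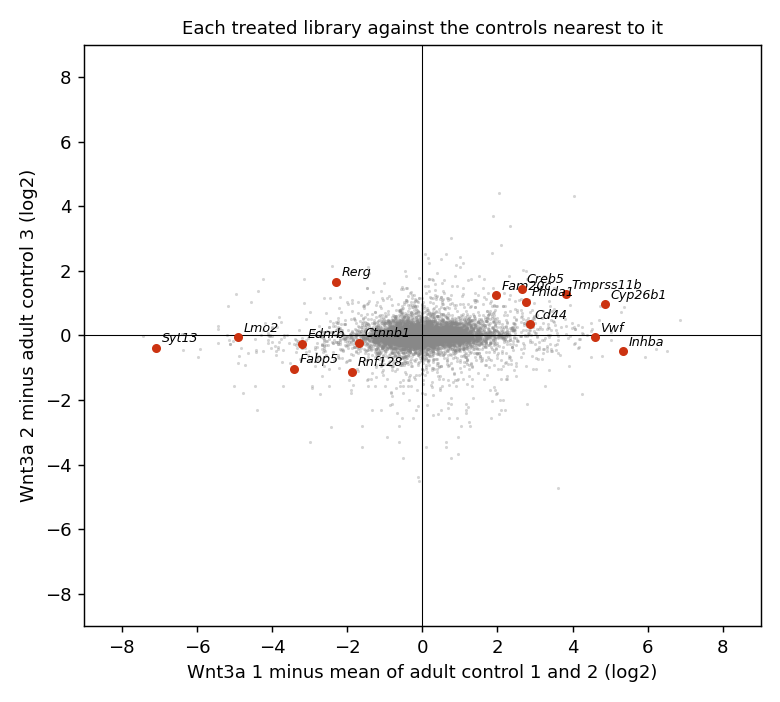
Log2 difference of Wnt3a 1 from the mean of controls 1 and 2 (horizontal axis) and of Wnt3a 2 from control 3 (vertical axis), 1 point per tested gene (12590), with some of the genes named in the text in red. The cloud is wide along the horizontal axis (median absolute difference 0.412) and narrow along the vertical one (0.111).

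Few genes were past 2-fold the same way in both sets. There were 40 such genes higher (0.318%) and 29 lower (0.23%), beside 36 that were higher in Wnt3a 1 and lower in Wnt3a 2 and 21 with the opposite signs. Of the 69 with the same sign, 8 had at least 100 normalised counts on the higher side in both sets. They were Fabp5, Ano1, Phlda1, Tll1, Cd28, Rgs16, Tmprss11b and Fam20c, which were chosen after their values were seen. Phlda1, an early response gene, had 698, 571 and 279 in the controls and 4296 and 574 in Wnt3a 1 and 2, and Rgs16, a regulator of G protein signalling, 161, 171 and 83.8 and 561 and 210.1. Ano1, a calcium-activated chloride channel, had 792, 728 and 212 and 5981 and 427. Fabp5, a fatty acid binding protein of endothelium, was the most abundant of the 29 lower genes, with 16159, 20204 and 1483 and 1689 and 723, and Tll1, a BMP1-type protease, had 498, 428 and 942 and 138 and 456. Cd28 had 579, 671 and 221 in the controls and 246 and 97.9 in Wnt3a 1 and 2. In Ano1, Phlda1, Fabp5, Cd28 and Tll1 the groups overlapped although each treated library was past 2-fold from its own controls. In Fabp5 and Cd28 Wnt3a 1 lay at the level of control 3. Its step from controls 1 and 2 cannot be told apart there from the split between the sets.

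Wnt ligands and the machinery that secretes them were mostly silent. Of 26 genes, 7 were tested. No read fell on Wnt3a itself in any of the 5 libraries, nor on Wnt3 or Rspo1. Wls, the carrier that takes Wnt proteins to the cell surface, had 4777, 4999.5 and 4886 in the controls and 5742 and 4716 in Wnt3a 1 and 2, and Wnt5a, a ligand known for β-catenin-independent signalling, 441, 389 and 465 and 378 and 409. Wls was highest in Wnt3a 1 by a small margin and Wnt5a lowest there, also by a small margin. Porcn, which adds the lipid that Wnt proteins need, had 29.5, 33.5 and 24.6 and 8.34 and 28.7. Wnt7b, a ligand for brain vessels, had 12.1, 12.2 and 1.97 in the controls and no read in either Wnt3a library, where the floor of 3 reads over the group is 1.93. With 2 reads in control 3 the controls of the 2 sets differed, and control 3 lay near that floor. Wnt7b was called lower in Wnt3a 1 against controls 1 and 2 (limma without control 3, adjusted p = 0.0155). Wnt7a, its close relative, was not tested, since its 22 reads all lay in Wnt3a 1.

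Secreted inhibitors were few. Of 12, 4 were tested. Dkk2, a Dickkopf protein that binds Lrp5 and Lrp6, had 64.2, 44.7 and 1554 in the controls and 22.2 and 1109 in Wnt3a 1 and 2, which is the split between the sets. Kremen1, a Dickkopf receptor, had 976, 1013 and 756 and 659.9 and 671, below all controls (unadjusted p = 0.047). Draxin, known from mouse and chick as a guidance molecule that antagonises Wnt signals, had 16.5, 12.2 and 23.7 and 58.3 and 45.4, above all controls (unadjusted p = 0.0171). Frzb had 52.0, 92.5 and 45.4 and 75.0 and 33.4, with the groups overlapping.

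Of 22 receptor and co-receptor genes, 16 were tested. limma called 0 of them in the group comparison, 2 had no overlap on the higher side (12.5%, against 7.55% of all tested genes) and 0 on the lower side (against 9.49%). The median log2 difference was 0.04 between the groups, -0.33 for Wnt3a 1 within its set and 0.01 for Wnt3a 2 within its set, against -0.02, -0.02 and -0.0032 over all tested genes. Fzd4, the receptor for Norrin and Wnt ligands in brain and retinal vessels, had 4946, 5002 and 8029 in the controls and 2023 and 7402 in Wnt3a 1 and 2. Fzd4 fell in Wnt3a 1 against controls 1 and 2 (log2 difference -1.30 ± 0.25, adjusted p = 0.0387) and was -0.12 from control 3 in Wnt3a 2. Lrp5 had 6067, 6486 and 6595 and 3776 and 6673 and fell in Wnt3a 1 in the same test (log2 difference -0.73 ± 0.15, adjusted p = 0.041), while Lrp6 had 3349, 3291 and 4371 and 3581 and 4526. Wnt3a 1 was the lowest library in Fzd4 and Lrp5 and lay within the controls in Lrp6.

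Of the other Frizzled genes, Fzd6 had 416, 405 and 1578 and 239 and 1587, with control 3 and Wnt3a 2 high. Fzd7 had 776, 849.9 and 1136 and 493 and 1010.0, and Fzd2 106, 128 and 190.3 and 91.7 and 172, with Wnt3a 1 lowest in both. Fzd9 had 809, 866 and 159 and 192 and 165 (log2 difference in Wnt3a 1 within its set -2.12, adjusted p = 0.0502, not called), with Wnt3a 1 at the level of control 3. Fzd5 had 1381, 1397 and 1112 and 1113 and 1046, and Fzd8 227, 250.1 and 164 and 206 and 127. Fzd1 reached at most 31.0 normalised counts, in Wnt3a 2, and was absent from control 2 and Wnt3a 1. In Fzd5 and Fzd8 the groups overlapped and no library stood apart.

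The remaining receptors include the co-activators through which brain ECs read Wnt7 and Norrin. Adgra2 (Gpr124) had 2605, 2552 and 4554 in the controls and 3205 and 4952 in Wnt3a 1 and 2, and its partner Reck 112, 155 and 307 and 197 and 273. Tspan12, the tetraspanin that works with Fzd4, had 660.1, 633 and 1141 and 1029 and 1141. In Adgra2 and Reck control 3 and Wnt3a 2 were the highest libraries. Ryk, a Wnt-binding kinase-like receptor, had 1747, 1819.7 and 1833 and 2585 and 1973, and Lgr4, an R-spondin receptor, 62.5, 79.3 and 86.8 and 140.3 and 111. Ryk and Lgr4 were above all controls in both Wnt3a libraries, by a log2 difference of 0.33 ± 0.25 and 0.72 ± 0.26 (unadjusted p = 0.222 and 0.0218). Ptk7 had 14.7, 15.2 and 49.3 and 11.1 and 58.5, again the split between the sets.

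All 29 intracellular transducers were tested. limma called 0 between the groups, 1 was above all controls (3.45%, against 7.55% of all tested genes) and 4 below (13.8%, against 9.49%). The median log2 difference was -0.20 for the groups, -0.20 for Wnt3a 1 and -0.05 for Wnt3a 2 within their sets. Ctnnb1, β-catenin itself, had 62278, 69209.5 and 34702 in the controls and 20374 and 29749.5 in Wnt3a 1 and 2, a group mean of 55397 ± 18254 (SD, n = 3) and 25062 ± 6629 (n = 2). Both treated libraries were below all controls, but Wnt3a 2 was nearer to control 3 than control 3 was to controls 1 and 2. The log2 difference was -1.11 ± 0.30 (unadjusted p = 0.00493). Within the sets it was -1.69 for Wnt3a 1 (adjusted p = 0.00899 in the fit without control 3) and -0.22 for Wnt3a 2.

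Dvl1, a Dishevelled adaptor, had 1874, 2104 and 746 in the controls and 775 and 707 in Wnt3a 1 and 2, and fell in Wnt3a 1 against controls 1 and 2 (log2 difference -1.36 ± 0.21, adjusted p = 0.0206). Dvl2 had 1927, 2112 and 1125 and 1749 and 1178, and Dvl3 697, 829 and 669 and 895 and 655. Among the 3 Dishevelled genes Wnt3a 1 was apart from its own controls in Dvl1 alone by this test. In Dvl1 it lay near control 3. Apc, the scaffold of the destruction complex, had 2437, 2205 and 3760.5 and 5009.6 and 3389, its partner Axin1 1574, 1682 and 1018 and 1592 and 1149.6, and the kinase Gsk3b 5574, 5641 and 6339 and 7449 and 6379.7. Gsk3b was above all controls in both Wnt3a libraries, though in Wnt3a 2 by 0.01 on the log2 scale from control 3, and Axin1 overlapped. Ctnnbip1, which keeps β-catenin from TCF factors, had 664, 620.1 and 645 and 306 and 602, and the co-activator Bcl9 624, 668 and 636 and 450.1 and 610.0. Both were below all controls. The corepressor Tle3 had 3011, 3447 and 2221 and 1946 and 1874, also below all controls.

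The TCF factors of the tested transducers differed between the sets. Tcf7l1 had 207, 177 and 543 in the controls and 250.1 and 455 in Wnt3a 1 and 2, and Tcf7l2 449, 488 and 1131 and 457 and 1006. In both, control 3 and Wnt3a 2 were the high libraries. The other transducers, among them Gsk3a, Csnk1a1, Csnk1d, Csnk1e, Dvl2, Bcl9l, Pygo2, Btrc, Fbxw11, Amer1, Tnks, Tnks2, Jup, Tle1, Tle4, Ctbp1 and Ctbp2, overlapped between the groups. Pygo1 reached at most 17.7 normalised counts, in control 3.

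Of 28 target and feedback genes 12 were tested, and the readouts that report the pathway most directly were at or near 0 in every library. Axin2 had 0, 0 and 1.97 in the controls and 5.56 and 7.16 in Wnt3a 1 and 2, that is 0, 0 and 2 reads against 4 and 6. Both treated libraries had more Axin2 reads than any control, a level too low for the test. Lef1 had 2 reads in control 2 and none in the other 4 libraries. Sp5 had 2 reads in each of control 3 and Wnt3a 1, and Nkd1, Notum and Dkk1 had none in any. A count of 0 in a library allows a normalised count of up to 2.6 to 4.17 at 3 reads, and this covers counting error only.

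The sequence upstream of Sp5 shows the kind of site at which TCF and LEF factors act. The letters CTTTGA, the core of their motif, were searched on both strands of the 250 bases before each annotated start in RefSeq's promoters (GRCm38.p6). They were present in 15.8% of the 27025 genes with a promoter in that table and in 12.8% of the 9822 tested genes with one, and in 5 of the 18 listed targets with one. None of the 6 tested targets with a promoter had a match. Sp5 held it at 2 places on the plus strand of chromosome 2 and is shown as a widely used readout of the pathway that had no more than 2 reads in any library. The capitals mark the motif.
Sp5, chr2:70474707-70474736, with the motif starting 204 bases before the start: gacactttgtcaCTTTGAgcactgccttgg
Sp5, chr2:70474807-70474836, with the motif starting 104 bases before the start: cggcaaggccccCTTTGAtcaggaaaatcc

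The 12 tested targets had a median log2 difference of 0.48 between the groups, 0.91 for Wnt3a 1 and 0.18 for Wnt3a 2 within their sets, beside -0.02, -0.02 and -0.0032 over all tested genes. limma called 0 between the groups, 2 were above all controls (16.7%, against 7.55% of all tested genes) and 0 below (against 9.49%). Wnt3a 1 was more than 2-fold above controls 1 and 2 in 4 of them and below in 0 (8.1% and 5.77% over all tested genes). Wnt3a 2 was more than 2-fold above control 3 in 1 (1.23%), Nkd2, on 2 reads against 0. Nkd2, a feedback inhibitor, had 17.3, 8.13 and 0 in the controls and 30.6 and 2.39 in Wnt3a 1 and 2. Tcf7, a TCF factor that the pathway induces, had 6.94, 12.2 and 17.7 and 19.4 and 35.8, and its reads were 8, 12 and 18 against 14 and 30. Tcf7 was above all controls in both treated libraries and by about the same step within each set, 1.00 and 0.97 on the log2 scale (unadjusted p = 0.0316 for the groups). Ccnd1, cyclin D1, had 43094, 37869.5 and 37527 and 95058 and 50659, also above all controls, with 1.23 and 0.43 within the sets.

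Cd44, the hyaluronan receptor and a Wnt target, was the tested target with the widest difference in Wnt3a 1. It had 3099, 3264 and 2066 in the controls and 22976 and 2637 in Wnt3a 1 and 2. Wnt3a 1 was 2.85 above controls 1 and 2 on the log2 scale (limma without control 3, adjusted p = 0.0427), whereas Wnt3a 2 lay 0.35 above control 3 and below controls 1 and 2. The group mean of 12807 ± 14382 with Wnt3a (SD, n = 2) thus rested on 1 library. Jun had 2746, 2411 and 866 and 6157 and 1092, Id2 264, 238 and 469 and 582 and 310.4, and Myc 2771, 2727 and 745 and 2062 and 871. Jun was highest in Wnt3a 1, and Myc followed the sets. The feedback genes Znrf3, Apcdd1 and Bambi had 318, 295 and 349, 144, 103 and 247 and 36.4, 34.6 and 27.6 in the controls and 300.1 and 369, 217 and 217 and 36.1 and 23.9 in Wnt3a 1 and 2. None of these 3 feedback genes was apart from the controls in both treated libraries. Fosl1 had 4075, 4044 and 2009 and 3783 and 2214, and Prickle1 1233, 1353 and 1711 and 1403 and 1578.

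**Figure D4:**
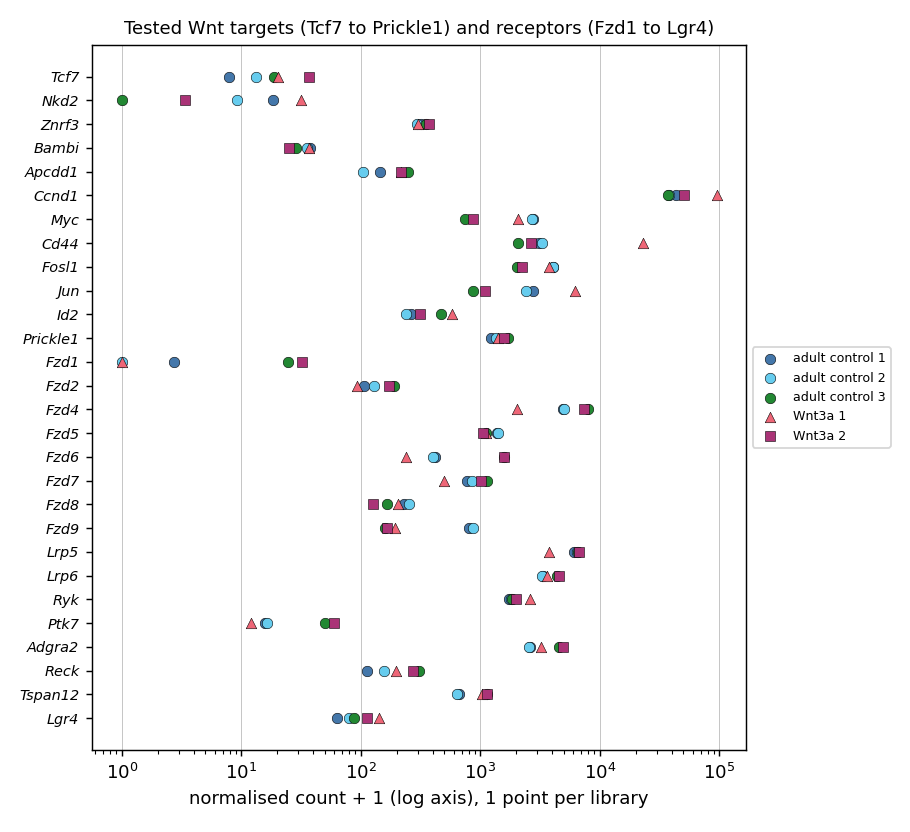
Normalised count + 1 (log axis) of the 12 tested Wnt targets and the 16 tested Wnt receptors, 1 point per library. Tcf7 and Ccnd1 are above all controls in both Wnt3a libraries, Cd44 stands out in Wnt3a 1 alone, and control 3 (green) and Wnt3a 2 (squares) are side by side in most rows.

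All 27 identity genes were tested, limma called 0 between the groups, 8 were below all controls (29.6%, against 9.49% of all tested genes) and 0 above. The 8 were Pecam1, Cdh5, Tek, Tie1, Egfl7, Icam2, Ptprb and Ecscr. In Wnt3a 1 against controls 1 and 2 the log2 difference was, for example, -2.01 in Flt1, -2.39 in Sox17, -3.93 in Sox18 and 4.59 in Vwf. Wnt3a 1 was more than 2-fold below controls 1 and 2 in 9 and above in 1 (5.77% and 8.1% over all tested genes), and it was above their mean, by any amount, in 5 of 27. Wnt3a 2 was past 2-fold of control 3 in none, and the median was -0.68 for Wnt3a 1 and -0.04 for Wnt3a 2. Sox18 and Sox17, SoxF transcription factors of endothelium, had 2039, 1977 and 2563 and 2471, 2782 and 2343 in the controls and 131 and 2031 and 500.1 and 2841 in Wnt3a 1 and 2. Both fell in Wnt3a 1 against controls 1 and 2 (adjusted p = 0.0461 and 0.0351). Tek (Tie2), the angiopoietin receptor, had 5349, 5643 and 2383 and 1282 and 2259.9, Clec14a 2812, 2708 and 5163 and 426 and 3088, and She 11798, 12507 and 12617 and 4409 and 12061. Vwf, von Willebrand factor, went the other way, with 116, 78.3 and 1369.5 and 2328 and 1317, and rose in Wnt3a 1 within its set (log2 difference 4.59 ± 0.72, adjusted p = 0.0218), where its controls were low. Eng, Erg, Nos3 and Tal1 overlapped between the groups. Wnt3a 1 also had the highest sum in some of the marker lists of other cells. The summed level of the neuron and progenitor list was 12320 in Wnt3a 1 and 1836 to 4845 in the other 4 libraries, nearly all of it from Nes, a filament gene of progenitors, at 4834, 4669 and 1825 in the controls and 12252 and 2331 in Wnt3a 1 and 2. Tubb3, a neuronal tubulin below the filter, had 50.01 in Wnt3a 1 and at most 2.03 elsewhere, while Dcx, Neurod2, Neurod6 and Sox2 had no read in any library. The astrocyte list summed to 11685 in Wnt3a 1 and 3899 to 5190 elsewhere, nearly all from Gja1, with Aqp4, Slc1a3 and Fabp7 at 0 throughout. The fibroblast and meningeal list summed to 581 and 209 to 335, with Pdgfra at 134, 157 and 241 and 550.1 and 223. Its other 2 tested members were more than 2-fold lower in Wnt3a 1 within its set. Ptgds had 49.4, 109.8 and 76.9 in the controls and 11.1 and 62.1 in Wnt3a 1 and 2. Col1a1 had 20.8, 10.2 and 9.86 and 4.17 and 0. Lum, Slc6a13 and Fbln1 were at 0 throughout. The microglia and macrophage list summed to 12838 in Wnt3a 1, within the 6794 to 15163 of the other libraries. The part of these other-cell markers in the endothelial values was not tested.

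Of 24 junction genes 19 were tested, with 0 called between the groups and 1 above and 1 below all controls (5.26% each, against 7.55% and 9.49% of all tested genes). Cldn5, the main claudin of the BBB, had 31200.3, 33861 and 8340.3 in the controls and 7832 and 7963 in Wnt3a 1 and 2 (log2 difference -1.39 ± 0.81, unadjusted p = 0.12). Both treated libraries were below control 3 by a small margin, and the mean difference of the groups rested on controls 1 and 2. Cldn12 had 802, 817 and 1011 and 1141 and 1263, above all controls (unadjusted p = 0.0295). Ocln, occludin, had 177, 141 and 666 and 25.0 and 609, and Jam2 5395, 5989 and 11955 and 2394 and 12025. Ocln and Jam2 fell in Wnt3a 1 within its set (adjusted p = 0.0372 and 0.0247). Gja1 (connexin 43) had 5110.3, 5184 and 3814 and 11644 and 4345, and Cgnl1, paracingulin, 21599, 23114 and 26588 and 46407 and 26057. These 2 genes rose in Wnt3a 1 (adjusted p = 0.0151 and 0.0351).

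Of 25 BBB transporters 17 were tested, with 0 called, 0 above all controls (against 7.55% of all tested genes) and 1 below (5.88%, against 9.49%). Slc2a1, the glucose transporter Glut1, had 3252, 3476 and 1789 in the controls and 5364 and 1681 in Wnt3a 1 and 2, and Abcb1a, P-glycoprotein, 143, 124 and 110.4 and 564 and 134. Mfsd2a, the lysolipid transporter that keeps transcytosis low, had 19.1, 24.4 and 0 and 16.7 and 0, and Slco1c1 had no read in any library. Slc2a1 and Abcb1a were highest in Wnt3a 1, and Mfsd2a followed the sets. Of 10 caveolar and vesicle genes, all tested, Cav1 had 15433, 12649 and 34123 and 24719 and 36629 with the groups overlapping. Cav2 had 5585, 4579.7 and 10946 and 11581 and 11614 with both treated libraries above the controls. Plvap, the diaphragm protein of leaky vessels, had 6506, 5893 and 5594 and 1900.5 and 4203, below all controls (unadjusted p = 0.0179). Of the 13 tested BBB transcription factors of 17, Lmo2 was called in Wnt3a 1 against all controls, Foxf1 had 1402, 1688 and 1709 and 1295 and 1693, and Foxf2, Foxq1 and Foxl2 had no read in any library.

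**Figure D5:**
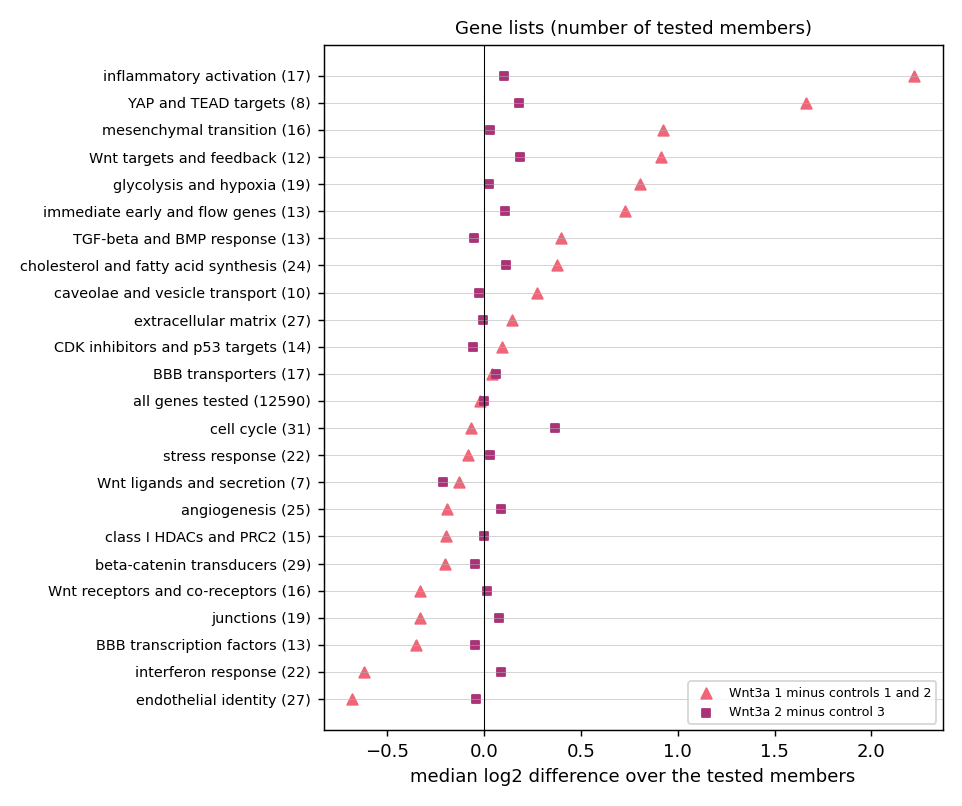
Median log2 difference over the tested members of each list with at least 5 of them, for Wnt3a 1 against controls 1 and 2 (triangles) and Wnt3a 2 against control 3 (squares), with the number of tested members in brackets. The triangles run from -0.68 (endothelial identity) to 2.22 (inflammatory activation), and the squares stay between -0.21 and 0.37.

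The 27 tested matrix genes had a median of 0.14 for Wnt3a 1 and -0.0074 for Wnt3a 2, with 8 more than 2-fold higher and 1 lower in Wnt3a 1 (8.1% and 5.77% over all tested genes). Of 16 tested genes of mesenchymal transition, 5 were above all controls (31.2%, against 7.55% of all tested genes) and 2 below (12.5%, against 9.49%), with a median of 0.93 for Wnt3a 1 and 0.03 for Wnt3a 2. Zeb2, a repressor that drives this transition, had 989.8, 794 and 1601 in the controls and 3845 and 1754 in Wnt3a 1 and 2 (adjusted p = 0.0461 in Wnt3a 1 within its set), and Snai2 364, 317 and 216 and 1081 and 217. The contractile genes Tagln and Acta2 were low, with at most 66.1 and 30.6 normalised counts. Fn1, fibronectin, had 4220.2, 3723 and 12706 and 32969 and 14538, above all controls, and rose in Wnt3a 1 within its set (log2 difference 3.06 ± 0.36, adjusted p = 0.0105). Control 3 and Wnt3a 2 were close in Fn1 and both above controls 1 and 2. Col5a1 and Col8a1 also rose in Wnt3a 1 (adjusted p = 0.0343 and 0.00728), and the basement membrane genes Col4a1 and Col4a2 had 45900.5, 49786 and 52885 and 27615, 30867 and 33013 in the controls and 23463 and 51009.8 and 14027 and 32511 in Wnt3a 1 and 2, lowest in Wnt3a 1. Col1a1 reached at most 20.8 and Col3a1 at most 7.9, and Lum had no read in any library.

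All 8 genes of a short YAP and TEAD list were tested, and their median was 1.66 for Wnt3a 1 and 0.18 for Wnt3a 2. Ccn1 and Ccn2, matricellular proteins, had 713, 578 and 369.7 and 717, 592 and 455 in the controls and 3999.6 and 635 and 4091 and 734 in Wnt3a 1 and 2. Both were highest in Wnt3a 1 by a wide gap, and in Wnt3a 2 they were 0.78 and 0.69 above control 3 on the log2 scale. Ankrd1 had 283, 178 and 186 and 1292 and 310.4, above all controls. Axl, a receptor kinase, had 167, 177 and 324 and 991 and 296 and rose in Wnt3a 1 within its set (adjusted p = 0.00766), with Wnt3a 2 at the level of control 3. Of 8 members, 2 were above all controls (25%, against 7.55% of all tested genes) and 0 below (against 9.49%). In Wnt3a 1, 4 were more than 2-fold above (8.1% of all tested genes), and in Wnt3a 2, 0 were past 2-fold (1.23% higher and 1.42% lower).

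Inflammatory genes had the highest median of the lists in Wnt3a 1, at 2.22, with 0.10 in Wnt3a 2. Of 17 tested, Wnt3a 1 was more than 2-fold above controls 1 and 2 in 11 and below in 0. Wnt3a 2 was past 2-fold of control 3 in 3 higher and 1 lower. Of those higher, Cxcl2 had 0 in control 3 and 9.55 in Wnt3a 2, and Il6 24.6 and 58.5. The lower one stood at -1.57 on the log2 scale, the size of a fall from 1.97 to 0. Over all tested genes the shares were 8.1% and 5.77% for Wnt3a 1 and 1.23% and 1.42% for Wnt3a 2. Icam1, Ptgs2 and Tnfaip3 were among the members higher in Wnt3a 1 than in controls 1 and 2. Tnfaip3 (A20), a brake on NF-κB, had 444, 490.0 and 245 in the controls and 3297 and 355 in Wnt3a 1 and 2. Cxcl1 had 377, 342 and 105 and 2019.9 and 100.3, Sele, E-selectin, 357, 228 and 395 and 1334 and 483, and Vcam1 76.3, 48.8 and 1873 and 331 and 2105. Sele was above all controls in both treated libraries, Cxcl1 was high in Wnt3a 1 only, and Vcam1 was highest in control 3 and Wnt3a 2. Nfkbia had 3886, 4266 and 3525 and 2189 and 2828, below all controls. The leukocyte gene Ptprc reached at most 2.78, and Cd68, which macrophages carry in lysosomes, had 12445, 14834 and 7456 and 12604 and 6658.

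Interferon response genes had a median of -0.62 in Wnt3a 1 and 0.08 in Wnt3a 2. Of 22 tested, 3 were above all controls (13.6%, against 7.55% of all tested genes) and 1 below (4.55%, against 9.49%). Wnt3a 2 was more than 2-fold above control 3 in 2, Isg15 and Gbp2, and below it in 0 (1.23% and 1.42% over all tested genes). In Wnt3a 1, 7 of 22 were more than 2-fold below controls 1 and 2 (5.77% of all tested genes). The 2 that were above were near the share of all tested genes (8.1%). Ifit2, which binds viral RNA with its family, had 71.1, 52.9 and 610.3 in the controls and 632 and 622 in Wnt3a 1 and 2. Wnt3a 1 lay there at the level of control 3, so its step from controls 1 and 2 cannot be told apart from the split between the sets. Ifit1 had 104, 132 and 161 and 261 and 174, and Ifit3 29.5, 46.8 and 123 and 200 and 146, both above all controls. Rtp4 had 329.6, 390.4 and 280.0 and 77.8 and 302, and Bst2 (tetherin) 2943, 3116 and 1806 and 1291 and 1849. Wnt3a 1 was the lowest library in Rtp4 and Bst2. In the TGF-β and BMP list, Inhba, the activin A subunit, had 25.2, 40.7 and 13.8 and 1346 and 9.55 and rose in Wnt3a 1 within its set (adjusted p = 0.0335), and Inhbb 11099, 11343 and 7519 and 2462 and 6573. Smad7, which restrains TGF-β signals, had 58.1, 76.2 and 94.7 and 293 and 68.0.

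In the angiogenesis list of 25 tested genes, 5 were below all controls (20%, against 9.49% of all tested genes) and 2 above (8%, against 7.55%). Adamts9, a protease known to restrain angiogenesis, had 4759, 5474 and 2702 in the controls and 824 and 2517 in Wnt3a 1 and 2 and fell in Wnt3a 1 within its set (adjusted p = 0.00775). Cxcl12, a chemokine of vessel growth, had 1644, 1354 and 2954 and 6432 and 3814, above all controls (unadjusted p = 0.0186). Vegfa had 547, 587 and 331 and 971 and 352, Dll4, a Notch ligand, 2969, 2936 and 1724 and 971 and 2169, and Jag1 2783, 2665 and 2445 and 4322 and 3209. Vegfa was highest in Wnt3a 1 and Dll4 lowest there, and Jag1 was above all controls in both treated libraries. Edn1, endothelin-1, of the flow-responsive list, had 5.20, 4.07 and 23.7 and 125 and 31.0, above all controls (unadjusted p = 0.00597), and rose in Wnt3a 1 within its set (adjusted p = 0.00899).

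The 14 genes of CDK inhibition and p53 response had medians of 0.09 for Wnt3a 1 and -0.06 for Wnt3a 2. In Wnt3a 1, 4 were more than 2-fold higher and 1 lower, against 8.1% and 5.77% of all tested genes. In Wnt3a 2, 0 were past 2-fold, against 1.23% higher and 1.42% lower. Mdm2, a p53 target and its inhibitor, had 6981, 6457 and 8532 in the controls and 27401 and 8212 in Wnt3a 1 and 2, and Ccng1, another p53 target, 6804, 5677 and 18715 and 26752 and 17710.0. Both rose in Wnt3a 1 within its set (adjusted p = 0.0177 and 0.0247), and Ccng1 was also high in control 3 and Wnt3a 2. Cdkn1a (p21) had 10686, 10599.8 and 9654 and 14788 and 9088. All 31 cell cycle genes were tested, and all 31 were higher in Wnt3a 2 than in control 3, with a median of 0.37 and a range of 0.09 to 0.58 on the log2 scale. Of the same 31 genes, 30 were higher in control 1 than in control 2, with a median of 0.66, so by this median 2 control cultures of 1 set were farther apart than Wnt3a 2 and control 3. Rrm2 and Foxm1 were above all controls in both treated libraries. In Wnt3a 1 the median was -0.07. Mki67, the proliferation antigen, had 2809.7, 1454 and 9559.9 and 4483 and 12169.6, and Top2a, topoisomerase IIα, 3694, 1795 and 9299 and 4459 and 12416. Control 3 and Wnt3a 2 were the highest in both.

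In the metabolic lists the sets stood apart. All 24 cholesterol and fatty acid genes were tested, none was above or below all controls (against 7.55% and 9.49% of all tested genes), and control 3 was lower than controls 1 and 2 by a median of 1.99 on the log2 scale. Within the sets the median was 0.38 for Wnt3a 1 and 0.11 for Wnt3a 2, smaller than the step between the sets. Of the 24 genes, 19 were higher in Wnt3a 1 than the mean of controls 1 and 2, and 20 were higher in Wnt3a 2 than in control 3. Over the 12590 tested genes these counts were 6050 and 6146. Wnt3a 1 was more than 2-fold above both controls in 3 of the 24 and below in 0 (8.1% and 5.77% over all tested genes). Of 19 glycolysis and hypoxia genes, all 19 were higher in Wnt3a 1 than the mean of controls 1 and 2 (median 0.81), and 11 were higher in Wnt3a 2 than in control 3 (median 0.02). Hk2, a hexokinase, had 129, 134 and 108 and 1143 and 81.2, and Bnip3, a mitophagy receptor induced by low oxygen, 473, 416 and 316 and 2112 and 362 (adjusted p = 0.0404 in Wnt3a 1 within its set). The class I HDAC and PRC2 list of 15 genes, the chromatin regulators of the wider study, had 0 past 2-fold in either treated library, with Hdac2 at 3295, 2929.8 and 6013 and 3884 and 6296 and Ezh2 at 689, 479.8 and 1083 and 789 and 1406. Over all tested genes 8.1% were past 2-fold higher and 5.77% lower in Wnt3a 1, and 1.23% and 1.42% in Wnt3a 2. The 22 stress response genes had medians of -0.08 for Wnt3a 1 and 0.03 for Wnt3a 2, the 13 immediate early and flow genes 0.73 and 0.11, and the 4 tested lymphatic and sinusoidal genes -0.79 and -0.38.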

How the data were processed

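ECs of adult mouse cortex were profiled by mRNA sequencing (KAPA mRNA HyperPrep, paired-end, NextSeq 550). The methods paragraph on sequencing does not list the Wnt3a libraries, which were taken to have been made like the others. The authors aligned reads to mm10 with STAR and counted them on protein-coding genes, and the submitters' processing notes name FastQC, cutadapt, STAR, featureCounts and DESeq2 without versions. The strand setting of the counting was not stated, so overlapping genes may share reads. The deposited table holds a linear signal, namely read counts after the authors' division by each library's size factor. Whole reads (within 0.01) were recovered for 100% of values, with 21171509 to 31763483 reads a library. Of 21638 lines, 26 carried a date for a symbol and were left out, with 0.21% to 0.281% of a library. All columns matched a sample.

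Genes with at least 10 in at least 2 of the 5 libraries were tested with limma 3.58.1 (R 4.3.3, intensity trend, pseudocount 1) in a single fit of all 10 libraries with 6 residual degrees of freedom, and with Benjamini-Hochberg adjustment. Fold changes are on the log2(value + 1) scale and understate the change of low genes. A library fitted alone was its own level. Within-set differences and calls without control 3 used the same genes. edgeR 4.0.16 and DESeq2 1.42.0 on the recovered reads were alternatives, as were other pseudocounts, filters, scalings, blocks and left-out libraries. The fits were tested on simulated data, in which all libraries shared a mean except in the genes set to change with Wnt3a. The simulated data had no culture sets, so that test does not cover the split between the sets. Named genes were the study's Wnt and barrier genes, the 12 of smallest p and the 8 of widest gap in each direction (mean of at least 100, no overlap), in each direction also the 6 widest differences between the Wnt3a libraries and the 6 of smallest p per treated library (at least 100 on the higher side), all tested Wnt targets, receptors and transducers, and up to 6 members of smallest p of each of 33 lists, of which the text takes a part. The text also names list members outside this rule, chosen after their values were seen. The genes and lists were chosen with earlier results of these data known, and the culture sets, with the alternatives that use them, after the values were seen. Some genes are not reported here. Motif searches used RefSeq promoters (GRCm38.p6).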

Additional observations from a re-analysis of the deposited data

How the results depend on the processing

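The count of called genes between the groups was 0 in the fit as reported and 1 with DESeq2, and ranged from 0 to 732 over the fits that left out 1 library, with 732 without control 3 and 48 without Wnt3a 2. For Wnt3a 1 alone the 48 calls became 296 with no filter on low values, 0 with the 5 libraries fitted alone, 11 with edgeR and 504 with DESeq2, and ranged from 0 to 685 with a control left out, with 0 without control 1 or control 2 and 685 without control 3. For Wnt3a 2 alone the 0 calls became 33 with no filter and 1 with DESeq2 (Arl4a), and ranged from 0 to 1567, the latter without control 3. The 20 genes past 2-fold without overlap became 4 with a pseudocount of 10, 69 at 1.5-fold and 2146 at any gap, and ranged from 26 to 868 with a library left out, with 31 without control 1, 675 without control 3, 150 without Wnt3a 1 and 868 without Wnt3a 2. The 334 genes past 2-fold between Wnt3a 2 and control 3 became 66 with a pseudocount of 10. The group differences of Cd44 and Vegfa turned to -0.063 and -0.43 without Wnt3a 1, and were 3.06 and 1.03 without Wnt3a 2. Causes of these shifts were not tested.

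Deviations from the group mean correlated at 0.596 for replicate number 1 and at -0.586 for number 2. The deviations of the 2 Wnt3a libraries mirror each other, and controls 1 and 2 were alike. Opposite signs were therefore bound to appear, and these values cannot show whether the replicate numbers pair the samples. A fit with the replicate block called 0 genes, with 1620 at an unadjusted p under 0.05 in all 10 libraries and 2134 in the 5. Other scalings moved the median of all genes by -0.0117 to -0.0559. A gene under 3 reads in a library cannot be told from absence, and the comparison of Wnt3a 2 with control 3 has no replicate.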
